A study of Mus musculus with 32 samples.

Results

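The inflamed ear of NC/Nga mice was set against their inflamed back skin at the end of an HDM-induced dermatitis study. The comparison used 16 of the 32 arrays, the 8 titled HDM ear and the 8 titled HDM back skin, chosen by title alone and not by any measured value. NC/Nga is an inbred mouse strain prone to eczema-like skin disease, and HDM is the agent given; the labels do not spell it out, and they give no dose, schedule, age or sex. The other 16 arrays were 8 of Sham ear and 8 of Sham back skin from the same strain, and what the sham animals received is not described. One protocol text, the same for all 32 samples, speaks of HDM-treated mice, so sham rests on the titles and the agent label. All groups were 8 mm punches held for 18 hours or more in RNAlater, and 100 ng of total RNA from each was hybridised to a Mouse Clariom D array, a whole-transcript expression array. Mice were numbered 1 to 8 in each group. The labels do not say whether an ear and a back array of the same number came from the same animal, nor that the 8 arrays of a group came from separate animals beyond the mouse number in the title.

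The mouse ear is a thin plate of elastic cartilage covered on both faces by skin with short, sparse hair. Back skin carries dense fur follicles above a layer of fat and a sheet of skeletal muscle, the panniculus carnosus. Skin cells also keep a record of their place on the body through Hox and other positional transcription factors. Eczema-like inflammation adds a stress programme in keratinocytes, changes in barrier proteins and lipids, and an influx of leukocytes drawn by chemokines. The sham arrays give the same contrast of ear and back in sham mice.

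All levels below are log2 values as deposited, so that a difference of 1 is a 2-fold difference between groups. Each difference is HDM ear minus HDM back skin, tested with limma over all 22206 gene and transcript rows, and a row was called when its Benjamini-Hochberg adjusted p was under 0.05. Levels are given as the lowest, the median and the highest of the 8 arrays of a group, a mean carries its SD over 8 arrays, and a difference carries its SE. A value was called above background when it exceeded the median of the negative control rows of its own array, which lay between 4.43 and 5.38. It was 5.09 to 5.38 on Sham ear arrays and 4.43 to 5.09 on the others, so Sham ear values met the strictest cut. Where all 8 arrays of a group lay below it, the size is given only as a bound, and an interaction that draws on such a group is a fitted value with no measured size. For 24 further genes named in the text 1 group mean lay under background while some arrays exceeded it, and raising the values to background brought their differences nearer to 0 by 0.15 to 1.03. In bulk samples such as these, fewer cells of a type and less RNA per cell cannot be told apart.

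The 2 inflamed sites differed widely. Of the 22206 rows, 5831 (26.3%) were called, 3501 (15.8%) higher and 2330 (10.5%) lower in HDM ear, and the 8 ear and 8 back values did not overlap for 1759 rows (7.92%). Counts of called genes in the lists below are to be read against these shares, and a count near them is no result about a list. Differences of at least 3 log2 units were found for 98 rows higher and 254 rows lower in HDM ear. The median difference over all rows was 0.03. The arrays of each site resembled each other, with correlations between an array and the mean of the rest of its group of 0.982 to 0.993 for HDM ear and 0.988 to 0.994 for HDM back skin. The first principal component of the 16 arrays carried 55.5% of their variance and separated the sites, with scores of 66.0 to 83.1 for HDM ear and of -80.8 to -67.8 for HDM back skin. The second carried 17.8% and spread the HDM ear arrays. Mice 1, 2, 5 and 7 scored between -76.2 and -28.3 on it, and mice 3, 4, 6 and 8 scored between 40.7 and 70.8. The 8 HDM back arrays lay between -15.0 and 8.68. An SD above 1 was found for 1079 rows (4.86%) in HDM ear and for 235 rows (1.06%) in HDM back skin.

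**Figure D1:**
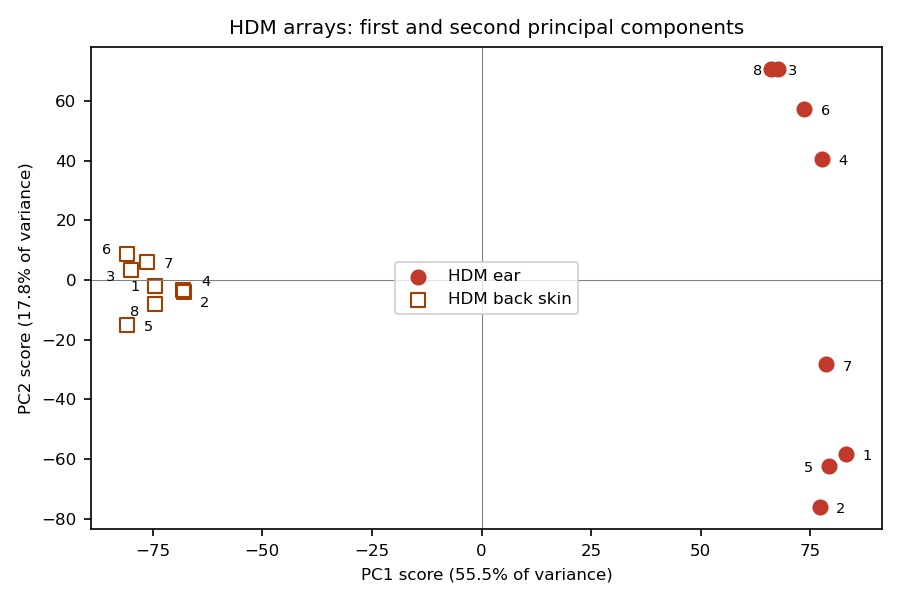
Scores of the 16 HDM arrays on the first and second principal components of the 22206 rows, HDM ear as filled circles and HDM back skin as open squares, each labelled with its mouse number. The first component (55.5% of the variance) parts the sites and the second (17.8%) spreads the HDM ear arrays over a range of -76.2 to 70.8.

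Sham ear and Sham back skin differed as well, with 6595 rows called (29.7%), 52.3% of them higher in ear, or 66.6% with array medians made equal. Mice 1 and 2 differed from the other 6 on their Sham back arrays: their means over the hair list described below were 6.68 and 10.4 against 11.2 to 14.7, and over the neutrophil list 6.38 and 6.42 against 5.23 to 5.67. Without these 2 arrays 6536 rows were called, and several counts are given both ways below. Over the 22206 rows the site difference with HDM and the site difference with sham, which share no arrays, correlated at r = 0.774 (across rows, which are not independent). Of the 3501 rows higher in HDM ear, 1672 (47.8%) were also higher in Sham ear, 130 (3.7%) were lower in Sham ear, and 1699 (48.5%) were not called there. Of the 2330 rows lower in HDM ear, 1374 (59.0%) were also lower in Sham ear, 31 (1.3%) were higher there and 925 (39.7%) were not called. The test of whether the 2 site differences were unequal, an interaction fitted on all 32 arrays, called 2251 rows (10.1%), 1885 without the 2 Sham back arrays. These were 1503 with a positive interaction (6.77% of all rows) and 748 with a negative one (3.37%). Thus 66.8% were higher with HDM, and with array medians made equal 45.8% of 2415 were, since that scaling moved the median interaction over all rows from -0.01 to -0.13. Among the rows called in HDM and not in sham, the interaction was called in the same direction for 600 of the 1699 higher rows and for 198 of the 925 lower rows. For the other rows called with HDM alone the site differences were not shown to be unequal.

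**Figure D2:**
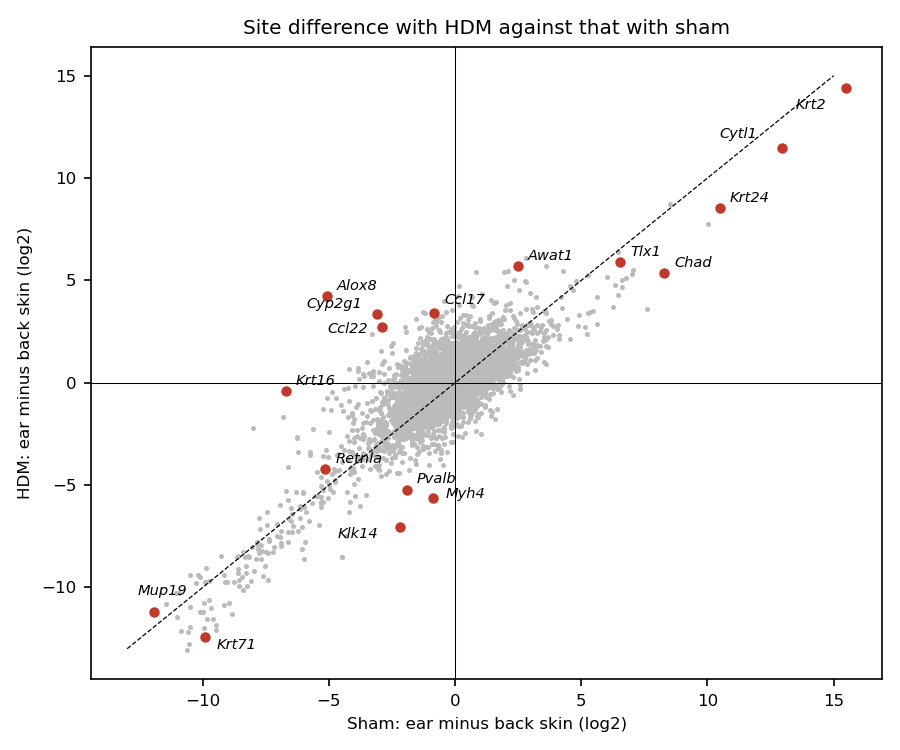
Ear minus back difference in log2 units with sham (horizontal axis) against that with HDM (vertical axis) for all 22206 rows, with the named genes as larger labelled points. Hair genes lie at the lower left, Krt2 and Cytl1 at the upper right, and Alox8 lies at the upper left, with -5.09 in sham and 4.24 with HDM.

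The largest positive difference among the named genes was that of a keratin. Krt2, a type II keratin of the upper layers of ear, sole and tail epidermis, had log2 levels of 15.77, 19.66 and 19.92 in HDM ear, against 3.51, 4.39 and 5.06 in HDM back skin. The groups lay far apart, and in back skin 1 of 8 arrays exceeded background. The difference was 14.40 ± 0.54 (adjusted p = 3.31e-13), or 13.83 once levels below background were set to it. It was 15.49 (adjusted p = 4.98e-18) in the sham arrays. Krt24, a type I keratin, had levels of 7.67, 14.71 and 16.93 in HDM ear, against 3.83, 4.82 and 5.30 in HDM back skin. The ear arrays spread over more than 9 log2 units here, and even the lowest exceeded every back array, with a difference of 8.54 ± 1.27 (adjusted p = 5.66e-05).

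Hair shaft and root sheath genes went the other way. All 36 measured genes of the hair cortex, cuticle and inner root sheath were lower in HDM ear, with a median difference of -8.43 (-7.54 with values under background raised to it) against 0.03 over all rows, and 34 of them did not overlap between the sites. Krt71, a type II keratin of the inner root sheath, had 3.36, 4.04 and 6.20 in HDM ear, against 16.10, 16.98 and 17.45 in HDM back skin. Krt27, its type I partner in the same sheath, had 3.38, 4.71 and 6.47 in HDM ear, against 16.34, 17.05 and 17.56 in HDM back skin. Trichohyalin (Tchh), which hardens the inner root sheath, stayed above background on every ear array, with 5.18, 7.45 and 9.75 in HDM ear, against 19.09, 19.72 and 19.81 in HDM back skin. None of the 3 overlapped between the sites, and the differences were -12.40 ± 0.37 (adjusted p = 1.04e-14), -12.21 ± 0.34 (adjusted p = 6.12e-15) and -12.06 ± 0.43 (adjusted p = 1.73e-13). The keratin-associated proteins that cross-link the hair cortex formed most of the rest of the 15 largest falls: Krtap22-2 had a difference of -13.08, Krtap7-1 of -12.78, Krtap1-4 of -12.14, Krtap6-5 of -12.01, Krtap11-1 of -11.85 and Krtap8-1 of -11.54. Also among the 15 were the hair keratin Krt86 at -11.92, Krtap1-5 at -11.57, Krtap9-1 at -11.20 and the trichohyalin-like Tchhl1 at -11.46. The 6 keratin-associated genes named first lay between 2.96 and 9.04 on HDM ear arrays and between 14.94 and 19.12 on HDM back arrays.

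The hair genes also fell in Sham ear, all 36 of them with a median difference of -7.64, and the interaction called 1 of the 36. Without the 2 Sham back arrays the sham median was -9.14, with all 36 still lower. HDM back arrays had list means of 11.6 to 13.4 and Sham back arrays of 6.68 to 14.7. HDM ear arrays had list means of 4.14 to 5.48 and Sham ear arrays of 4.79 to 6.27. Hair genes were thus lower in ear than in back skin with both agents.

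To show the regulatory stretch of genes on either side of this contrast, promoters of 4 keratins were taken from RefSeq (GRCm38.p6), from 250 bases before to 50 bases after the annotated start. Krt2 and Krt71 lie on chromosome 15 in the type II keratin cluster and had the opposite site differences given above; Krt27 and Krt25 lie on chromosome 11 in the type I cluster and both fell in HDM ear. Capitals mark the letters TATAAA on either strand. Only these exact letters were searched, so the similar stretch tatataag in the Krt2 window is not marked.
Krt2, chr15:101818120-101818419, minus strand, no match in this window: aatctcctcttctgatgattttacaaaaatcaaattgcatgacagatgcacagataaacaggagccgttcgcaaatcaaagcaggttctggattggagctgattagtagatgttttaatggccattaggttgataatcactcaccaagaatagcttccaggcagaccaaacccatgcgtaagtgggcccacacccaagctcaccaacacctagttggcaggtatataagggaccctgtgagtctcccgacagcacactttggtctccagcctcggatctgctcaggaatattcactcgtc
Krt71, chr15:101743048-101743347, minus strand, match from 40 bases before the start: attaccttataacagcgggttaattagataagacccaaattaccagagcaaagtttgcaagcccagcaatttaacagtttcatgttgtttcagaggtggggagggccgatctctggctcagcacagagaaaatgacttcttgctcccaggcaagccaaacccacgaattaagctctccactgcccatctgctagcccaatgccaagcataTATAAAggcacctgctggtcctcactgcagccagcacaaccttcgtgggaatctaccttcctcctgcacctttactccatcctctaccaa
Krt27, chr11:99351069-99351368, minus strand, match from 15 bases before the start: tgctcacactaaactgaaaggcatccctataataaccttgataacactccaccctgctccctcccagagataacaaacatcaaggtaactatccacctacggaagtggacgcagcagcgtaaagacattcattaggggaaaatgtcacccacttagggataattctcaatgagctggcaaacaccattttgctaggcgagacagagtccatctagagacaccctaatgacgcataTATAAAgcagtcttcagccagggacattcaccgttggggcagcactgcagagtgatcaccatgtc
Krt25, chr11:99322902-99323201, minus strand, match from 30 bases before the start: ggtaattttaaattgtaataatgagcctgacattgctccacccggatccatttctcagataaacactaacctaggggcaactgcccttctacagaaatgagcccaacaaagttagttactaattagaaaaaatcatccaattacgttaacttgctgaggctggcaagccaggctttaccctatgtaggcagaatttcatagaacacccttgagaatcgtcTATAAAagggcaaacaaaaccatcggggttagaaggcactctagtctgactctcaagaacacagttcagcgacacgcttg
Of the 36 hair genes, 27 had an entry in that table, and TATAAA stood in a promoter of 20 of them (74.1%), against 15.7% of the 27025 genes of the table. Among the stress keratins and small proline-rich proteins it stood in 10 of 14 (71.4%), and among the circadian clock genes in 0 of 16. These are letter matches and not measured binding sites.

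Cartilage genes marked the ear. Of 28 measured cartilage genes, 19 were higher and 2 lower in HDM ear, with a median difference of 1.48 (0.88 with values under background raised to it). On all 8 HDM back arrays 15 of the 28 lay below background. Cytl1, a secreted chondrocyte protein, had levels of 14.59, 16.45 and 17.33 in HDM ear, against 4.01, 4.72 and 5.41 in HDM back skin. Aggrecan (Acan), the main cartilage proteoglycan, had 8.30, 9.80 and 10.81 in HDM ear, against 4.38, 5.13 and 5.66 in HDM back skin. Neither overlapped between the sites, with differences of 11.46 ± 0.38 (adjusted p = 5.92e-14) and 4.69 ± 0.34 (adjusted p = 6.7e-09). Comp, an oligomeric matrix protein of cartilage and tendon, and Chad, a leucine-rich cartilage protein, were below background on all 8 back arrays and were at least 11.5-fold and at least 16.2-fold higher in HDM ear. The small proteoglycan fibromodulin (Fmod) differed by 6.41 ± 0.41 (adjusted p = 1.15e-09). Col2a1, the collagen that defines hyaline cartilage, lay below background on every array of both sites, so the labelled ear tissue rests on the other members of the list.

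The cartilage genes were less unequal between the sites with HDM than with sham. The cartilage list had 23 members higher and 2 lower in Sham ear, with a median difference of 2.31, and the interaction was lower with HDM for 14 of the 28 and higher for 0 (12 and 0 without the 2 Sham back arrays). List means were 6.35 to 7.52 on HDM ear arrays and 7.95 to 8.22 on Sham ear arrays, which did not overlap. Back skin had 4.64 to 4.84 with HDM and 4.59 to 5.16 with sham. Chad was below background on all Sham back arrays too, and was at least 117-fold higher in Sham ear; its interaction was called as lower with HDM (adjusted p = 0.000711).

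Hox genes parted by site. Hox transcription factors mark position along the body axis. Of 8 measured Hox A genes 2 were higher and 2 lower in HDM ear, of 9 Hox B genes 6 were lower and 0 higher, of 9 Hox C genes 5 were lower and 0 higher, and of 7 Hox D genes 1 was lower. Below background at both sites lay 4, 4, 4 and 5 genes of the A, B, C and D clusters, and the median difference with dim values set to background was -0.34 for Hox B and -0.02 for Hox C. Hoxc8 had 2.73, 4.20 and 5.12 in HDM ear, against 8.19, 8.98 and 10.58 in HDM back skin, and Hoxb7 had 3.31, 3.65 and 3.91 in HDM ear, against 6.88, 7.94 and 8.45 in HDM back skin; neither overlapped. Hoxb7 was below background on all ear arrays and at least 8.12-fold lower there, and Hoxc8 differed by -4.99 ± 0.35 (adjusted p = 3.66e-09). Hoxa2, which patterns the second arch from which the outer ear derives, went the other way with 5.77, 6.35 and 7.60 in HDM ear, against 3.29, 4.61 and 5.36 in HDM back skin and a difference of 2.01 ± 0.28 (adjusted p = 2.47e-05). Hoxc13, a regulator of hair keratin genes, differed by -4.87 ± 0.37 (adjusted p = 1.16e-08).

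Among 54 measured other positional transcription factors, 10 were higher and 14 lower in HDM ear, and 21 were below background at both sites. Tlx1, a homeobox factor, had 8.11, 9.34 and 10.47 in HDM ear, against 3.29, 3.48 and 3.85 in HDM back skin and was at least 23.7-fold higher in HDM ear. Meis2, a Hox cofactor, differed by 2.62 ± 0.25 (adjusted p = 3.51e-07). Zic1, a dorsal zinc finger factor, was at least 8.14-fold lower, and Lhx2, a LIM homeobox factor of hair follicle stem cells, differed by -3.29 ± 0.37 (adjusted p = 2.45e-06). The interaction was not called for any of these 4. In sham Tlx1 was at least 44.7-fold higher in ear, and Meis2, Zic1 and Lhx2 differed by 2.61, -4.50 and -2.94.

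Skeletal muscle transcripts were mostly lower in HDM ear. For many of them the site difference with HDM was unequal to that with sham, and how many depended on 2 Sham back arrays. Of 32 measured muscle genes, 26 were lower and 4 higher in HDM ear, with a median difference of -2.65. In sham 5 were lower and 7 higher, with a median of -0.24, and the interaction was lower with HDM for 20 of the 32. Without the 2 Sham back arrays 10 were lower and 6 higher in sham, with a median of -0.88, and the interaction was lower for 13. Myh4, the fast IIb myosin heavy chain, had 9.62, 12.45 and 14.46 in HDM ear, against 16.31, 17.80 and 18.46 in HDM back skin without overlap. Its difference was -5.62 ± 0.64 (adjusted p = 2.97e-06), against -0.87 (adjusted p = 0.244) in sham, and the interaction was -4.75 (adjusted p = 0.000665). Without the 2 Sham back arrays the sham difference of -1.40 was called (adjusted p = 0.0264) and the interaction of -4.22 remained past the threshold (adjusted p = 0.00215). The perinatal chain Myh8, the sarcoplasmic calcium pump Atp2a1, parvalbumin (Pvalb) and the glycogen-targeting subunit Ppp1r3a differed by -4.04, -3.74, -5.22 and -4.04 with HDM and were not called in sham on all arrays; Pvalb and Ppp1r3a were called there without the 2 Sham back arrays, at -2.64 (adjusted p = 0.00534) and -1.59 (adjusted p = 0.0252). Titin (Ttn) and nebulin (Neb), giant scaffolds of the sarcomere, were lower in HDM ear, with differences of -2.52 and -2.34, whereas their sham differences of 1.04 and 0.83 were not called.

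Myh1, the IIx myosin heavy chain, had 9.41, 10.86 and 12.58 in HDM ear, against 11.66, 12.79 and 13.43 in HDM back skin, and averaged 14.12 ± 0.52 in Sham ear, against 12.68 ± 1.55 in Sham back skin. Its difference was -1.65 ± 0.43 (adjusted p = 0.00819) with HDM and 1.44 (adjusted p = 0.0424) with sham, and the interaction was -3.09 (adjusted p = 0.00467). The positive sham difference was lost without the 2 Sham back arrays (1.28, adjusted p = 0.101), while the interaction of -2.93 was still called (adjusted p = 0.0126). Mybpc2, a fast-muscle myosin-binding protein, was below background on all HDM ear arrays and at least 20-fold lower, while its sham difference was -5.24 and its interaction was not called. On the list mean HDM ear arrays had 7.13 to 9.0 and HDM back arrays 9.99 to 11.1; Sham ear arrays had 9.62 to 11.5 and Sham back arrays 8.45 to 12.7. HDM ear arrays lay below all HDM back and Sham ear arrays, and the lowest Sham back array, that of mouse 2, fell within their range. How much muscle a punch held was not recorded in the labels, and its part in the result was not tested.

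Adipocyte genes were lower in HDM ear for 13 of 17 measured members and higher for 0, with a median difference of -2.10. Adiponectin (Adipoq), an adipocyte hormone, had 6.70, 8.50 and 8.99 in HDM ear, against 11.05, 11.29 and 12.60 in HDM back skin, and the lipid droplet protein Cidec had 5.00, 6.46 and 7.37 in HDM ear, against 10.07, 10.88 and 11.49 in HDM back skin. The sites did not overlap for either, with differences of -3.46 ± 0.35 (adjusted p = 6.96e-07) and -4.71 ± 0.31 (adjusted p = 1.92e-09). Leptin (Lep) differed by -3.01 ± 0.43 (adjusted p = 3.28e-05) and carbonic anhydrase Car3 by -4.26 ± 0.37 (adjusted p = 7.49e-08). Sham gave 14 of 17 lower with a median of -2.28, and the interaction was called for 2 of the 17.

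**Figure D3:**
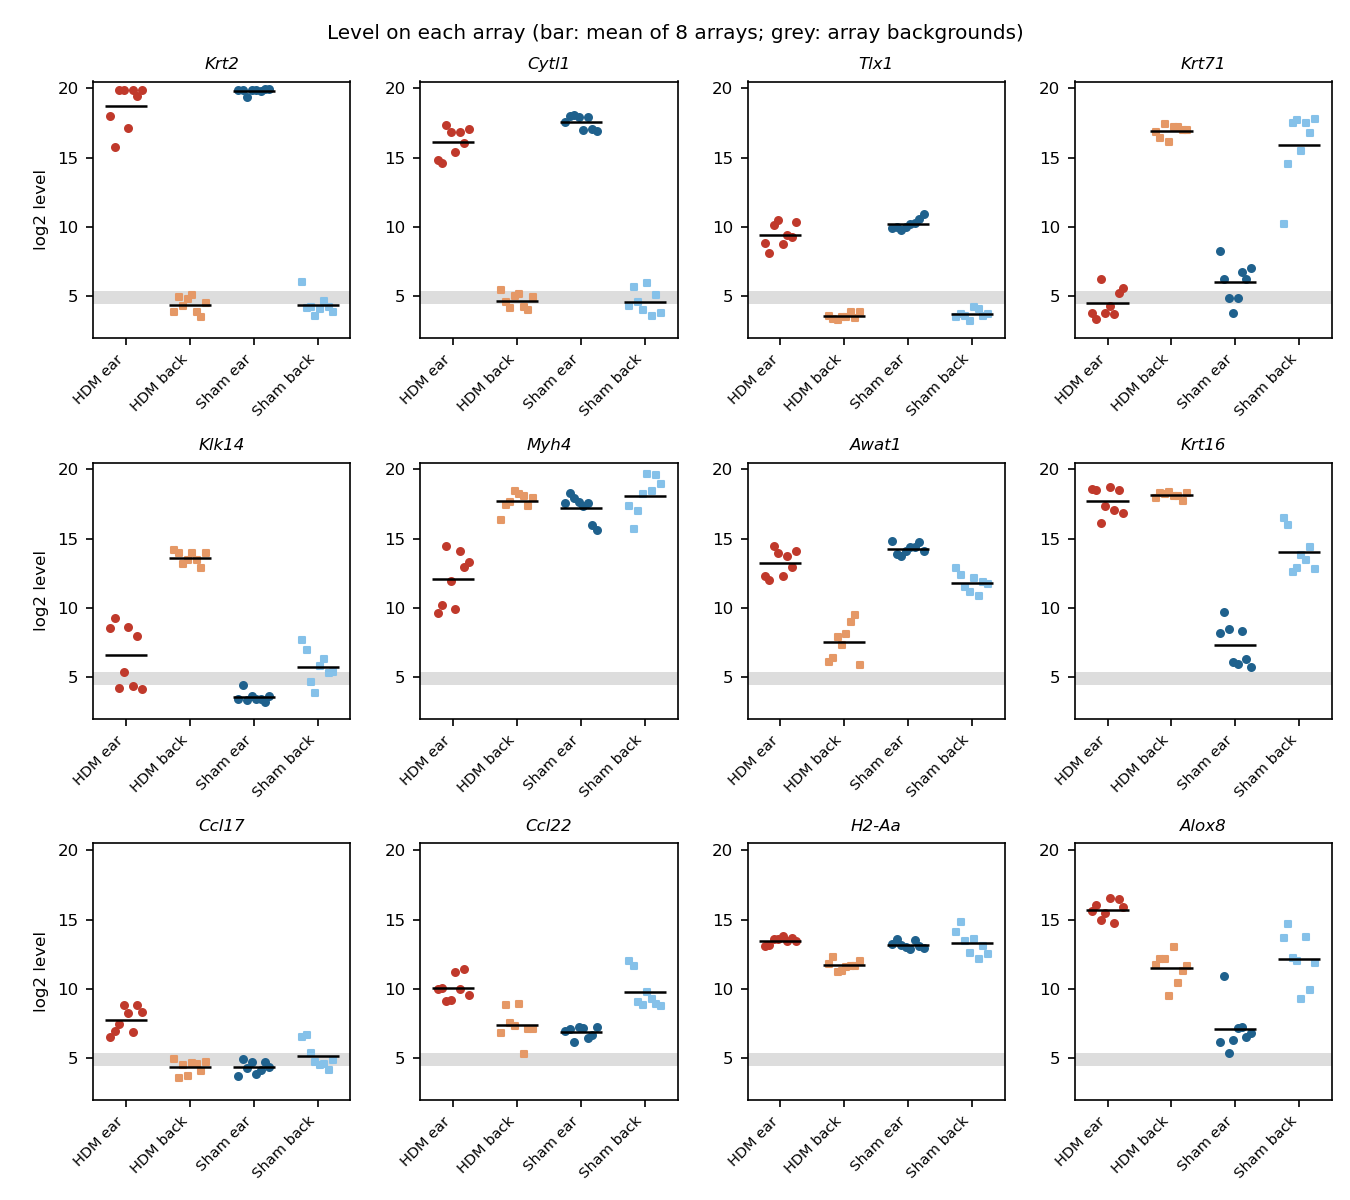
Log2 level of 12 named genes on each of the 32 arrays, HDM ear, HDM back skin, Sham ear and Sham back skin from left to right, with the group mean as a bar and the range of array backgrounds (4.43 to 5.38) shaded. Krt2, Cytl1 and Tlx1 stand high in both ear groups, Krt71 in both back groups and Klk14 in HDM back skin, Myh4 is lowest in HDM ear, and Alox8 and Ccl22 are higher in ear with HDM and higher in back with sham.

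Of 14 measured epidermal keratins 3 were higher and 5 lower in HDM ear, and the main keratins of the basal epidermis were not called. Krt5 and Krt14, the basal pair, differed by -0.10 ± 0.10 (adjusted p = 0.517) and -0.12 ± 0.09 (adjusted p = 0.419), and the suprabasal Krt1 by 0.06 ± 0.19 (adjusted p = 0.853). All 3 had a level above 18 on every HDM array, near the top of the table's range of 1.71 to 19.93. Krt10, the partner of Krt1, was higher in HDM ear by 0.67 ± 0.18 (adjusted p = 0.00895). Krt79, a keratin of the follicle opening, and Krt23, a type I keratin, were lower, with differences of -1.86 ± 0.33 (adjusted p = 0.000345) and -2.71 ± 0.40 (adjusted p = 5.42e-05).

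Stress keratins and small proline-rich proteins were called between the inflamed sites about as often as all rows, of which 26.3% were called. Of 19 measured, 1 was higher and 4 were lower in HDM ear with a median difference of 0.31, while in sham 0 were higher and 13 lower with a median of -2.60, and the interaction was higher with HDM for 9 (8 without the 2 Sham back arrays). Krt16, a keratin induced in wounded and inflamed epidermis, had 16.11, 17.95 and 18.71 in HDM ear, against 17.72, 18.14 and 18.38 in HDM back skin. The groups overlapped, with a difference of -0.40 ± 0.33 (adjusted p = 0.422). In sham it averaged 7.35 ± 1.50 in Sham ear, against 14.07 ± 1.47 in Sham back skin, so that the interaction was 6.32 (adjusted p = 5.16e-06). The gap junction protein Gjb2 and Krt17 stayed lower in HDM ear, with differences of -2.65 ± 0.61 (adjusted p = 0.00305) and -3.27 ± 0.38 (adjusted p = 3.31e-06); both are expressed in follicles as well. Sprr4, a small proline-rich envelope protein, differed by -5.83 ± 0.58 (adjusted p = 4.58e-07) with HDM and -5.30 with sham.

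Calprotectin was not called between the inflamed sites. S100a8 and S100a9, the subunits of calprotectin made by neutrophils and stressed keratinocytes, had 15.65, 18.27 and 19.83 in HDM ear, against 17.47, 18.16 and 18.84 in HDM back skin and 15.48, 18.09 and 19.07 in HDM ear, against 17.02, 18.09 and 18.33 in HDM back skin. Both overlapped, and their differences of -0.29 ± 0.57 (adjusted p = 0.764) and -0.21 ± 0.51 (adjusted p = 0.81) were not called. S100a8 averaged 6.11 ± 1.68 in Sham ear, against 10.51 ± 2.28 in Sham back skin, and the interaction was 4.12 (adjusted p = 0.0148). That of S100a9 was not called, at 3.46 (adjusted p = 0.0603). The beta-defensin Defb3 likewise overlapped, with 13.72, 16.61 and 18.11 in HDM ear, against 14.69, 15.84 and 16.61 in HDM back skin and a difference of 0.73 ± 0.62 (adjusted p = 0.439) against -3.83 (adjusted p = 0.000336) in sham. The psoriasin-related S100a7a was lower in HDM ear, with 5.30, 8.51 and 11.69 in HDM ear, against 9.80, 10.92 and 11.89 in HDM back skin with overlap and a difference of -2.26 ± 0.81 (adjusted p = 0.0473). It ran from 9.85 to 11.69 on the ear arrays of mice 1, 2, 5 and 7 and from 5.30 to 7.17 on those of mice 3, 4, 6 and 8. In 11 of the 16 fits with 1 array left out it was not called (adjusted p 0.0629 to 0.0915), and all its Sham ear arrays lay below background. Of the 11 measured S100 genes 3 were higher and 3 lower: S100a4, a protein of fibroblasts and leukocytes, was higher in HDM ear by 3.56 ± 0.14 (adjusted p = 4.82e-13), and S100a3, a hair cuticle protein, was lower, with a difference of -9.64 ± 0.49 (adjusted p = 3.08e-11).

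A few antimicrobial proteins did differ. Reg3g, a bactericidal lectin, had 2.68, 9.27 and 11.32 in HDM ear, against 2.56, 3.27 and 4.47 in HDM back skin. It exceeded background on 6 of 8 HDM ear arrays and on 0 of 8 HDM back arrays, the groups overlapped at the low end, and it was at least 9.98-fold higher in HDM ear. In sham its values lay below background with no call, and the interaction was called as higher with HDM (adjusted p = 0.00926). Wfdc12, a whey acidic protein family inhibitor, was higher by 3.55 ± 0.55 (adjusted p = 8.94e-05), whereas the acute-phase protein Saa3 was lower, with 6.03, 10.16 and 13.72 in HDM ear, against 12.55, 13.88 and 14.66 in HDM back skin and a difference of -3.69 ± 1.06 (adjusted p = 0.0141). Of the 18 measured antimicrobial genes 4 were higher and 3 lower in HDM ear.

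Several skin proteases were lower in HDM ear. Of 23 measured kallikreins, membrane proteases and inhibitors, 12 were lower and 2 higher, with a median difference of -1.12. Klk14 is a trypsin-like kallikrein of the desquamation cascade. It had 4.17, 6.69 and 9.30 in HDM ear, against 12.90, 13.71 and 14.17 in HDM back skin with no overlap. Its difference was -7.06 ± 0.72 (adjusted p = 7.08e-07) with HDM. All Sham ear arrays lay below background, where it was at least 1.45-fold lower (adjusted p = 0.00048), and the interaction was called as lower with HDM (adjusted p = 0.000511). Klk7, the chymotrypsin-like kallikrein of the cornified layer, and Klk6 differed by -1.50 ± 0.18 (adjusted p = 4.55e-06) and -2.12 ± 0.46 (adjusted p = 0.00188), and neither overlapped. Klk5, which activates the cascade in human skin, did not pass the test, with 10.38, 10.59 and 11.40 in HDM ear, against 10.26, 10.72 and 10.93 in HDM back skin and a difference of 0.06 ± 0.16 (adjusted p = 0.823). The cystatin Cst6, an inhibitor of cathepsins and legumain, was lower, with a difference of -3.02 ± 0.27 (adjusted p = 1.02e-07), and of 24 measured serpins and stefins 5 were higher and 2 lower. Serpinb2 and Serpinb6d, intracellular serpins, were higher by 2.78 ± 0.26 (adjusted p = 2.64e-07) and 5.40 ± 0.61 (adjusted p = 2.37e-06). Serpinb6d averaged 10.81 ± 1.85 in HDM ear and 5.41 ± 0.52 in HDM back skin. Both sham groups stood above these, with 13.24 ± 0.60 in Sham ear and 12.41 ± 1.21 in Sham back skin.

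Envelope proteins were split. Of 37 measured cornified envelope and filaggrin-like genes, 12 were higher and 7 lower in HDM ear, with a median difference of 0.46, and in sham 17 were higher and 12 lower (17 and 11 without the 2 Sham back arrays). Hornerin (Hrnr), a filaggrin-like protein, was higher in HDM ear by 2.11 ± 0.39 (adjusted p = 0.000537). Repetin (Rptn) was lower, with a difference of -2.38 ± 0.62 (adjusted p = 0.00789), and cornulin (Crnn) was below background on all ear arrays and at least 1004-fold lower. Flg2 had 5.68, 12.40 and 16.48 in HDM ear, against 11.51, 12.97 and 14.08 in HDM back skin. The HDM ear arrays ran from near background to above every back array, and the difference of -1.32 ± 1.57 (adjusted p = 0.602) did not pass the test. In sham it averaged 18.35 ± 0.18 in Sham ear, against 16.99 ± 0.64 in Sham back skin.

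Lipid genes of the sebaceous gland were higher in HDM ear. Of 26 measured, 15 were higher and 1 lower, with a median difference of 1.35. In sham 11 were higher and 3 lower with a median of 0.25 (12 and 3 without the 2 Sham back arrays), and the interaction was higher with HDM for 9 either way. Awat1, which makes wax esters, had 12.04, 13.34 and 14.44 in HDM ear, against 5.84, 7.61 and 9.50 in HDM back skin, and Elovl3, a fatty acid elongase of sebum, had 14.46, 16.16 and 17.44 in HDM ear, against 9.88, 12.49 and 13.77 in HDM back skin. Neither overlapped between the sites, with differences of 5.71 ± 0.52 (adjusted p = 1.66e-07) and 4.04 ± 0.58 (adjusted p = 3.51e-05). Dgat2l6, another acyltransferase of the wax and triglyceride family, had 10.41, 11.29 and 11.74 in HDM ear, against 4.58, 7.04 and 8.14 in HDM back skin; it differed by 4.22 ± 0.41 (adjusted p = 3.13e-07) with HDM and by 0.11 in sham, where it was not called, and the interaction was 4.12 (adjusted p = 6.67e-06). The desaturases Scd3 and Scd1, the second among the highest values of the whole table, differed by 5.48 ± 0.52 (adjusted p = 2.73e-07) and 1.48 ± 0.23 (adjusted p = 7.7e-05).

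On this list the means of HDM ear arrays were 10.1 to 11.6 and of HDM back arrays 8.58 to 9.94, against 11.4 to 12.0 on Sham ear arrays and 10.6 to 11.7 on Sham back arrays. HDM back skin was the lowest of the 4 groups, and did not overlap with any other. Fa2h, the fatty acid 2-hydroxylase of epidermal and sebaceous lipids, showed the order at a single gene: it had 14.17, 17.04 and 18.84 in HDM ear, against 8.41, 11.55 and 13.50 in HDM back skin, and averaged 18.76 ± 0.34 in Sham ear, against 16.67 ± 0.70 in Sham back skin.

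Ceramide and cholesterol synthesis genes followed, with 18 of 30 measured genes higher and 1 lower in HDM ear and a median difference of 0.97. Ceramide synthase Cers4 had 14.67, 16.77 and 18.16 in HDM ear, against 10.63, 11.95 and 13.26 in HDM back skin, without overlap and with a difference of 4.72 ± 0.54 (adjusted p = 2.97e-06). Lanosterol synthase (Lss) and the elongase Elovl1 differed by 2.56 ± 0.25 (adjusted p = 3.53e-07) and 0.98 ± 0.12 (adjusted p = 7.76e-06). Cers3, the synthase of the ultra-long ceramides of the barrier, was not called, with a difference of -0.24 ± 0.42 (adjusted p = 0.738). In sham 14 were higher and 3 lower with a median of 0.59 (19 and 3 without the 2 Sham back arrays), and the interaction was called for 4 of the 30, all higher with HDM (3 higher and 2 lower without those arrays).

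**Figure D4:**
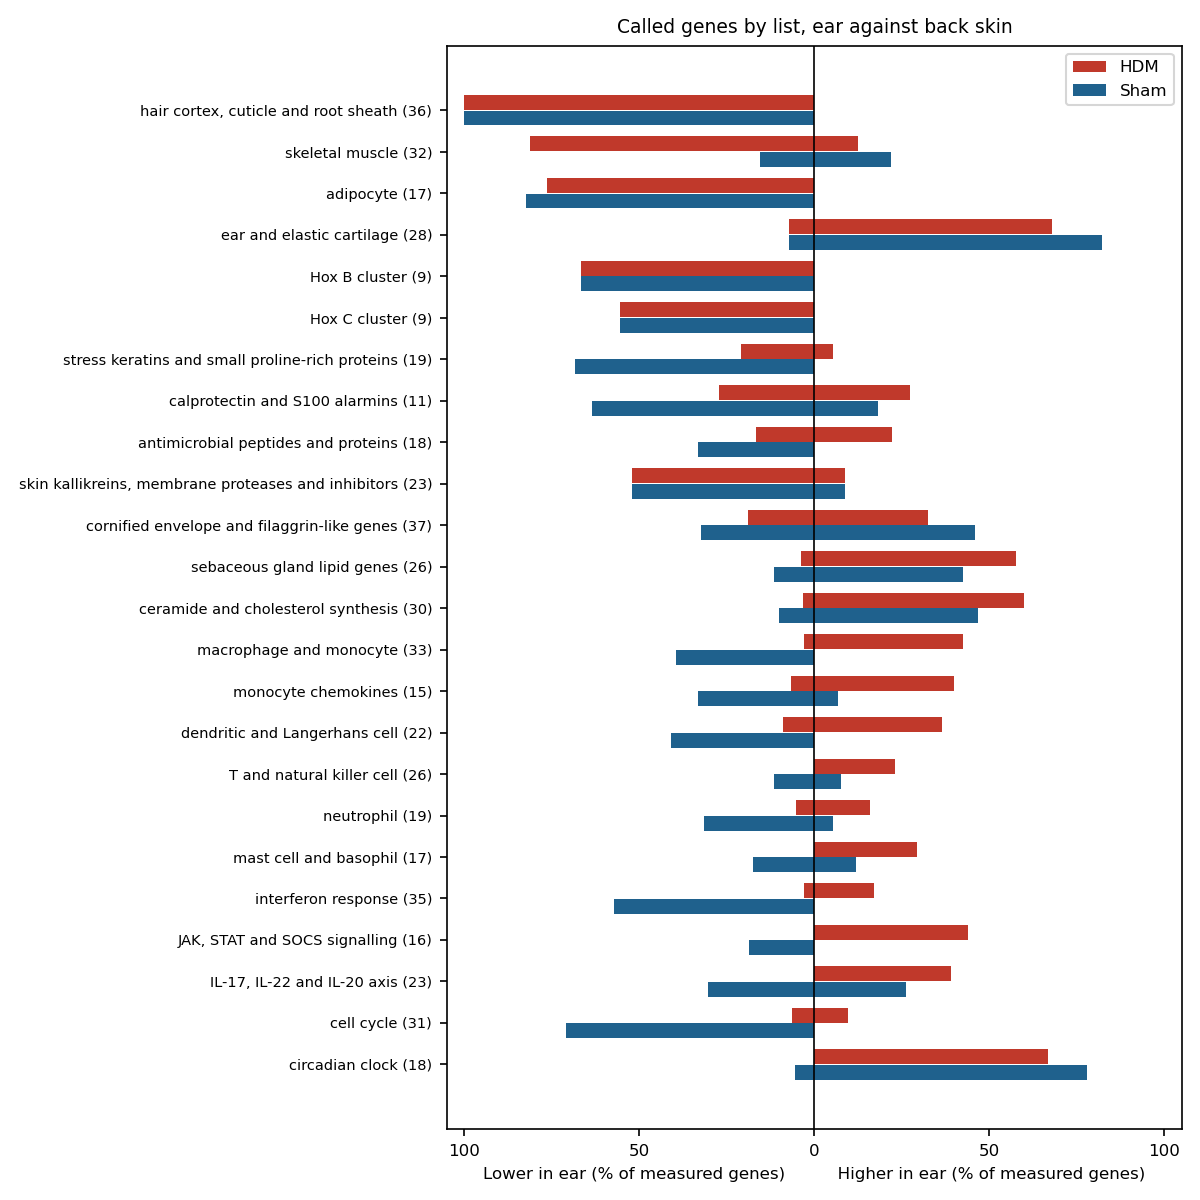
Number of measured genes in each of 24 lists that were higher (right of 0) or lower (left of 0) in ear than in back skin, as a percentage of the measured genes of the list, with HDM above and sham below for each list. All 36 hair genes and most adipocyte genes were lower in ear with HDM and with sham, of 32 muscle genes 26 were lower with HDM and 5 with sham, and of 33 macrophage genes 14 were higher with HDM and 13 lower with sham.

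Some macrophage genes were higher in the inflamed ear and some were lower in the sham ear, and Fcer1g was both. Of 33 measured macrophage and monocyte genes, 14 were higher and 1 was lower in HDM ear, with a median difference of 1.03. In sham 0 were higher and 13 lower with a median of -0.60, and the interaction was higher with HDM for 19. Without the 2 Sham back arrays 11 were lower and 1 higher in sham, and the interaction was higher for 14. Cd163, a haemoglobin scavenger receptor of resident macrophages, had 12.61, 14.99 and 15.89 in HDM ear, against 11.56, 12.11 and 12.93 in HDM back skin, and the colony-stimulating factor receptor Csf1r had 13.66, 14.19 and 14.97 in HDM ear, against 12.41, 13.05 and 13.30 in HDM back skin. Csf1r did not overlap and Cd163 did, with differences of 1.27 ± 0.20 (adjusted p = 0.000111) and 2.44 ± 0.42 (adjusted p = 0.000231). Fcer1g, the signalling chain of activating Fc receptors, differed by 2.49 ± 0.69 (adjusted p = 0.0112) with HDM and -1.04 (adjusted p = 0.00257) with sham. The ligand Csf1 had 14.14, 14.56 and 14.95 in HDM ear, against 12.11, 12.59 and 13.22 in HDM back skin without overlap, a difference of 1.90 ± 0.18 (adjusted p = 2.31e-07).

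The list did not move as one. Adgre1, a macrophage surface marker, was not called, with 7.87, 8.39 and 9.33 in HDM ear, against 8.55, 9.09 and 9.77 in HDM back skin and a difference of -0.69 ± 0.25 (adjusted p = 0.0505); leaving out the HDM back array of mouse 4, 5 or 6 or the HDM ear array of mouse 2 or 4 gave adjusted p of 0.0181 to 0.0484. Cd14, a co-receptor for bacterial lipopolysaccharide, had 6.88, 10.46 and 13.72 in HDM ear, against 7.44, 9.75 and 11.45 in HDM back skin, a wide spread in ear and a difference of 0.95 ± 0.97 (adjusted p = 0.53) that was not called. Retnla, a resistin-like protein of alternatively activated macrophages that is made by other cells too, was below background on all HDM ear arrays and at least 12.2-fold lower there, and was lower in Sham ear as well. The means over the list ran from 8.08 to 10.8 on HDM ear arrays and from 8.27 to 8.71 on HDM back arrays, and so overlapped. The 4 ear arrays that scored below 0 on the second component, those of mice 1, 2, 5 and 7, had 9.86 to 10.83, above every back array, and those of mice 3, 4, 6 and 8 had 8.08 to 8.91. Fcer1g had 13.26, 13.68, 14.06 and 13.00 on the first of these sets of ears and 9.10, 10.64, 9.82 and 9.17 on the others, against 8.02 to 9.61 in HDM back skin.

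Monocyte-attracting chemokines were higher in HDM ear for 6 of 15 measured genes and lower for 1, with a median difference of 1.24. Ccl2 had 9.71, 10.66 and 11.82 in HDM ear, against 7.17, 8.05 and 8.96 in HDM back skin, and Ccl7 had 9.16, 10.63 and 11.69 in HDM ear, against 6.13, 7.29 and 8.44 in HDM back skin. Neither overlapped, with differences of 2.62 ± 0.32 (adjusted p = 5.3e-06) and 3.14 ± 0.41 (adjusted p = 1.36e-05). Neither was called in sham, and the interactions were 3.72 (adjusted p = 0.000731) and 3.83 (adjusted p = 0.000665). Ccl12, another mouse ligand of Ccr2, and Ccl9 differed by 3.42 ± 0.62 (adjusted p = 0.000428) and 2.75 ± 0.43 (adjusted p = 0.000104) with HDM. Ccl9 differed by -2.89 (adjusted p = 7.25e-05) in sham. Ccl12 lay below background on all Sham ear arrays and was called lower there (adjusted p = 0.0249), but not without the 2 Sham back arrays (adjusted p = 0.0912), while its interaction was still called (adjusted p = 0.000901). Ccl3 and Ccl4 were not called with HDM, with differences of -0.96 (adjusted p = 0.621) and -0.17 (adjusted p = 0.915). Both overlapped between the sites.

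Of 15 measured neutrophil chemokines and granulopoietic factors 3 were higher and 0 lower in HDM ear, with a median difference of 0.79, and 4 were below background at both sites. Pf4, a platelet and macrophage chemokine, had 10.63, 12.51 and 13.26 in HDM ear, against 8.70, 9.25 and 10.20 in HDM back skin without overlap and a difference of 2.76 ± 0.40 (adjusted p = 4.25e-05). The neutrophil attractants Cxcl1, Cxcl2 and Cxcl3 were not called, with differences of 1.90 ± 0.71 (adjusted p = 0.057), 0.79 ± 1.27 (adjusted p = 0.711) and 1.51 ± 0.92 (adjusted p = 0.261). All 3 overlapped between the sites. Cxcl1 ran from 9.14 to 11.13 on the ear arrays of mice 1, 2, 5 and 7 and from 6.10 to 7.37 on those of mice 3, 4, 6 and 8, and it was called in 4 of the 16 fits with 1 array left out (HDM ear mouse 3, 4, 6 or 8, adjusted p 0.0195 to 0.0465).

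Chemokines linked to type 2 immunity stood higher in HDM ear while the leading type 2 cytokines lay below background. Ccl17, a ligand of Ccr4 made by dendritic cells and keratinocytes, had 6.50, 7.86 and 8.86 in HDM ear, against 3.52, 4.54 and 4.91 in HDM back skin, and Ccl22, the other Ccr4 ligand, had 9.09, 9.97 and 11.46 in HDM ear, against 5.30, 7.19 and 8.87 in HDM back skin. Neither overlapped, and their differences were 3.42 ± 0.34 (adjusted p = 4.84e-07) and 2.72 ± 0.46 (adjusted p = 0.0002). With values under background raised to it, that of Ccl17 was 2.88. In sham Ccl22 went the other way, with means of 6.87 ± 0.40 in Sham ear, against 9.78 ± 1.31 in Sham back skin, and the interaction was 5.63 (adjusted p = 2.1e-06). Ccl24, an eotaxin, differed by 3.14 ± 0.58 (adjusted p = 0.00046). Il4, Il5 and Il13 lay below background on all 16 HDM arrays and were among 9 such genes of the 28 measured on the type 2 list. Of the 28, 8 were higher and 2 lower in HDM ear.

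The class II chains H2-Ab1 and H2-Aa were higher in HDM ear, and the other class II genes of the dendritic and Langerhans cell list are not given singly. The chains H2-Ab1 and H2-Aa had 10.87, 11.33 and 12.08 in HDM ear, against 8.68, 9.53 and 10.24 in HDM back skin and 13.08, 13.53 and 13.81 in HDM ear, against 11.24, 11.64 and 12.33 in HDM back skin. Neither overlapped, their differences were 1.87 ± 0.23 (adjusted p = 5.69e-06) and 1.78 ± 0.16 (adjusted p = 9.26e-08), and the interactions of 2.04 (adjusted p = 0.00109) and 1.88 (adjusted p = 0.000754) were called while sham was not. Sham arrays averaged 13.18 ± 0.28 in Sham ear, against 13.28 ± 0.90 in Sham back skin for H2-Aa, so that HDM back skin was the group that stood lowest. Langerin (Cd207), which defines Langerhans cells, had 5.77, 7.46 and 8.38 in HDM ear, against 5.35, 6.05 and 6.93 in HDM back skin and a difference of 1.10 ± 0.36 (adjusted p = 0.0309). That call was lost on leaving out the HDM back array of mouse 1, 4, 6 or 8 or the HDM ear array of mouse 3, 4, 7 or 8, with adjusted p of 0.0504 to 0.0639. Epcam, on this list as a Langerhans cell marker and also expressed by follicle keratinocytes, was lower in HDM ear, with a difference of -2.12 ± 0.20 (adjusted p = 2.69e-07). Altogether 8 of 22 dendritic and Langerhans cell genes were higher and 2 lower, and in sham 0 were higher and 9 lower (6 without the 2 Sham back arrays).

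Cytokine signalling genes gave a like picture. Of 16 measured JAK, STAT and SOCS genes 7 were higher and 0 lower in HDM ear, with a median difference of 0.39. The feedback inhibitors Socs1 and Socs3 differed by 2.35 ± 0.43 (adjusted p = 0.000434) and 2.14 ± 0.61 (adjusted p = 0.0133), and Jak2 had 12.80, 13.66 and 14.44 in HDM ear, against 11.92, 12.46 and 12.80 in HDM back skin and a difference of 1.25 ± 0.24 (adjusted p = 0.00068). Jak1 and Tyk2 were not called, with differences of 0.26 ± 0.18 (adjusted p = 0.346) and -0.12 ± 0.20 (adjusted p = 0.724). In the list of IL-17, IL-22 and IL-20 cytokines and receptors 9 of 23 were higher and 0 lower. Il19, an IL-20 family cytokine, had 5.16, 10.54 and 12.80 in HDM ear, against 5.04, 6.25 and 7.83 in HDM back skin with overlap and a difference of 3.48 ± 0.96 (adjusted p = 0.0111), and its sham values were not called. The receptor Il20ra was above background on all 8 HDM ear arrays and on 2 HDM back arrays, with a difference of 3.12 ± 0.35 (adjusted p = 2.13e-06). It was higher in Sham ear too, by 1.94 (adjusted p = 5.5e-07), and the interaction was not called (1.18, adjusted p = 0.0652). Its mean was 7.47 ± 0.88 in HDM ear, against 9.36 ± 0.29 in Sham ear and 7.42 ± 0.50 in Sham back skin. Il17a exceeded background on 3 of 8 HDM ear arrays and on 0 of 8 HDM back arrays, and was not called.

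Interferon response genes were mostly not called, which also held for all rows, of which 26.3% were called. Of 35 measured, 6 were higher and 1 was lower in HDM ear, with a median difference of 0.12, and 5 were below background at both sites. Cxcl9, a T cell chemokine induced by interferon gamma, had 6.73, 8.71 and 11.30 in HDM ear, against 5.72, 6.38 and 7.42 in HDM back skin and a difference of 2.47 ± 0.56 (adjusted p = 0.0027), and Cxcl10 differed by 1.94 ± 0.36 (adjusted p = 0.000535). Cxcl9 was lower in Sham ear by the sham fit, at -1.94 (adjusted p = 0.000164), and Cxcl10 was called lower there too (adjusted p = 0.000563), with all Sham ear arrays below background. In sham 20 of the 35 were lower in ear and 0 higher, and the interaction was higher with HDM for 12; without the 2 Sham back arrays these numbers were 18 lower in sham and 8. Ifng exceeded background on 1 of 16 HDM arrays.

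Lists of other leukocytes held fewer called genes. Over all rows 15.8% were called higher and 10.5% lower in HDM ear, and the neutrophil genes called higher made up a like share. Of 26 measured T and natural killer cell genes 6 were higher and 0 lower, among them Cd4 with a difference of 1.45 ± 0.32 (adjusted p = 0.00231) and the costimulatory receptor Tnfrsf9 with 2.05 ± 0.42 (adjusted p = 0.00115), while Cd3d did not pass the test at 0.15 ± 0.33 (adjusted p = 0.8). Of 17 mast cell and basophil genes 5 were higher, among them the tryptase Tpsab1, with 6.83, 7.91 and 9.03 in HDM ear, against 3.63, 5.27 and 6.55 in HDM back skin and a difference of 2.83 ± 0.44 (adjusted p = 9.09e-05). The chymase Cma1 was not called, with 0.41 ± 0.20 (adjusted p = 0.149). Of 19 neutrophil genes 3 were higher and 1 lower: Retnlg, a resistin-like neutrophil product, had 7.07, 11.64 and 15.55 in HDM ear, against 5.05, 7.58 and 10.53 in HDM back skin with overlap and a difference of 4.00 ± 1.26 (adjusted p = 0.0247). Leaving out the HDM ear array of mouse 5 or 7 or the HDM back array of mouse 6 or 7 put it at adjusted p of 0.0508 to 0.0509. It had 13.78, 15.55, 14.93 and 13.57 on the ear arrays of mice 1, 2, 5 and 7, and 7.15, 9.72, 8.77 and 7.07 on those of mice 3, 4, 6 and 8, which lay within the range of HDM back skin. The neutrophil list means had 9.40 to 10.50 for the ears of mice 1, 2, 5 and 7 and 6.58 to 7.72 for the others. HDM back skin had 7.29 to 8.48. These sets of ears were taken from the second component of the same values, so this split is described and not separately tested. The reason for the split was not tested. Padi4, the peptidylarginine deiminase of neutrophil nuclei, was lower with a difference of -3.19 ± 0.22 (adjusted p = 4.01e-09), and was at least 5.35-fold lower in Sham ear, where all arrays lay below background. The neutrophil granule genes Mpo, Elane and Prtn3 and the eosinophil granule genes Prg2 and Epx were below background on all 16 HDM arrays, and 0 of 9 eosinophil genes were called.

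Among lipid mediator enzymes Alox8 was higher in HDM ear and lower in Sham ear. Alox8, a lipoxygenase that oxygenates arachidonic acid in mouse skin, had 14.74, 15.77 and 16.53 in HDM ear, against 9.49, 11.68 and 13.00 in HDM back skin. No HDM ear array came down to the highest back array, and the difference was 4.24 ± 0.41 (adjusted p = 3.29e-07). In sham it averaged 7.07 ± 1.68 in Sham ear, against 12.16 ± 1.88 in Sham back skin, with a difference of -5.09 (adjusted p = 7.11e-05), and the interaction was 9.32 (adjusted p = 1.87e-07). Of 21 lipoxygenase and prostaglandin genes 9 were higher and 4 lower in HDM ear. Alox5, the leukotriene-forming enzyme of leukocytes, had 8.59, 9.12 and 9.84 in HDM ear, against 5.80, 6.42 and 7.20 in HDM back skin and differed by 2.65 ± 0.22 (adjusted p = 3.33e-08). The prostaglandin E synthase Ptges and the prostacyclin synthase Ptgis were higher by 3.15 ± 0.44 (adjusted p = 3.07e-05) and 3.10 ± 0.33 (adjusted p = 1.19e-06), and none of these 3 overlapped.

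Alox8 was 1 of 121 genes that were higher in HDM ear and lower in Sham ear, and 28 genes were lower in HDM ear and higher in Sham ear. Dio2, a deiodinase that activates thyroid hormone, had 7.32, 10.37 and 12.55 in HDM ear, against 5.42, 6.44 and 7.60 in HDM back skin, a difference of 3.45 ± 0.69 (adjusted p = 0.00101), and a sham difference of -1.28 (adjusted p = 0.00943). Stanniocalcin (Stc1), a secreted glycoprotein hormone, had 8.43, 10.47 and 12.81 in HDM ear, against 6.88, 7.33 and 7.98 in HDM back skin without overlap and 3.10 ± 0.56 (adjusted p = 0.000359) with HDM, against -1.54 (adjusted p = 0.00973) with sham. Cyp2g1, a cytochrome P450 first known from olfactory tissue, had 7.13, 9.67 and 11.04 in HDM ear, against 3.89, 5.56 and 8.83 in HDM back skin with overlap, and 3.35 ± 0.78 (adjusted p = 0.0035) with HDM against -3.09 (adjusted p = 2.26e-05) with sham. For Dio2 and Stc1 HDM ear was the highest of the 4 group means, whereas for Cyp2g1 both sham groups stood above it, with 10.82 ± 0.68 in Sham ear, against 13.90 ± 1.17 in Sham back skin.

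Il18, an IL-1 family cytokine stored in keratinocytes, was lower in HDM ear and higher in Sham ear. It had 11.01, 11.71 and 11.94 in HDM ear, against 11.96, 13.07 and 13.41 in HDM back skin without overlap, a difference of -1.35 ± 0.20 (adjusted p = 5.82e-05) and a sham difference of 0.63 (adjusted p = 0.032). The carboxypeptidase Cpe differed by -1.36 ± 0.21 (adjusted p = 0.0001) with HDM and 0.73 (adjusted p = 0.00377) with sham, and the co-chaperone Dnaja4 by -1.57 ± 0.26 (adjusted p = 0.000161) and 0.64 (adjusted p = 0.0205), the last not called without the 2 Sham back arrays (0.47, adjusted p = 0.0862). Casp1, which matures Il18 and Il1b, was lower in ear with both agents, with differences of -2.56 with HDM and -2.97 with sham. Of 17 measured IL-1 and IL-36 family genes 2 were higher and 3 lower in HDM ear. Il1a, Il1b and Il1rn were not called with HDM. Il1b ran from 7.20 to 14.7 in HDM ear and from 7.97 to 11.9 in HDM back skin.

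**Figure D5:**
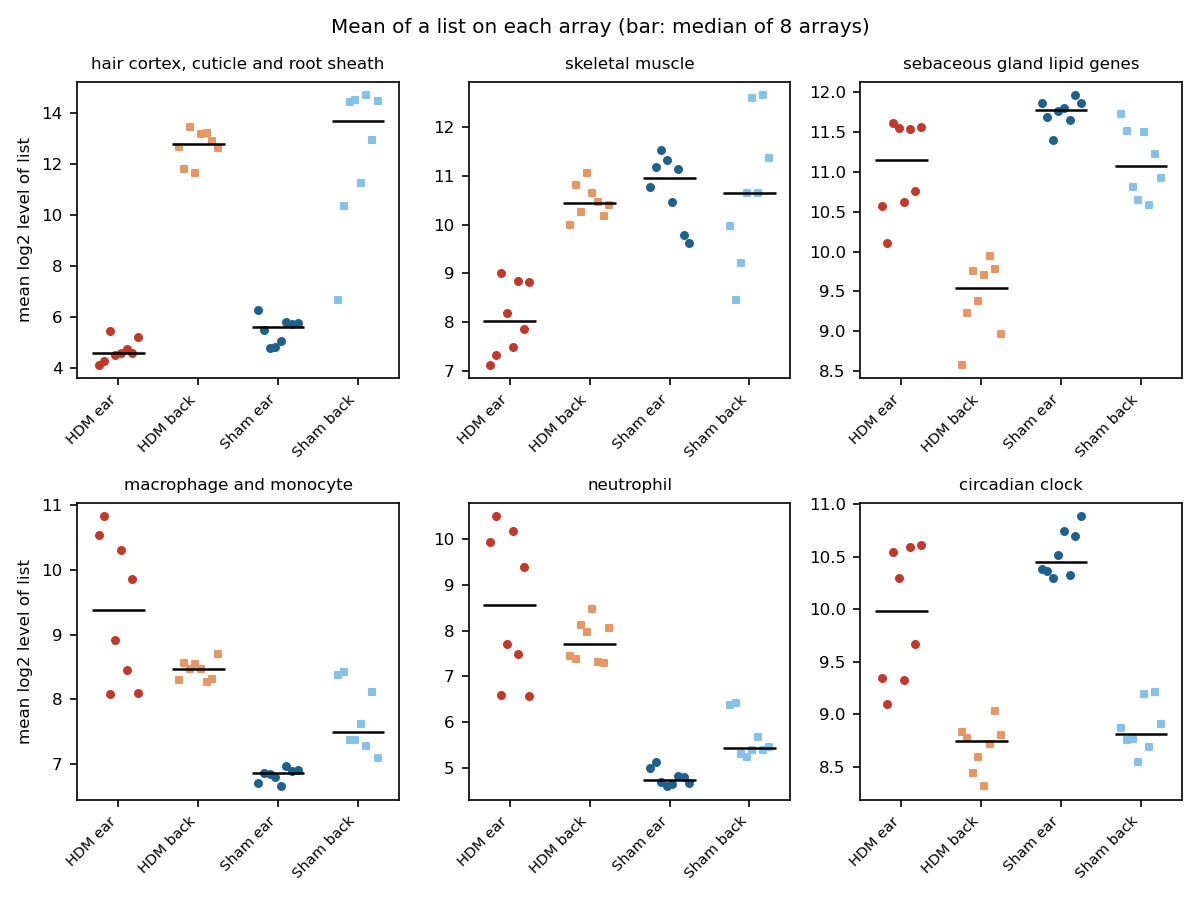
Mean log2 level over the measured genes of 6 lists on each of the 32 arrays, HDM ear, HDM back skin, Sham ear and Sham back skin from left to right, with the group median as a bar. HDM ear stands below HDM back skin and Sham ear in the muscle list, HDM back skin stands below the other groups in the sebaceous list, and both HDM groups stand above both sham groups in the neutrophil list.

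In the dermis the matrix differed by gene. Of 23 collagen and elastic fibre genes 8 were higher and 5 lower in HDM ear. Elastin (Eln) had 11.27, 12.69 and 13.55 in HDM ear, against 9.28, 9.97 and 10.58 in HDM back skin and Col18a1, a basement membrane collagen, had 9.37, 10.14 and 11.08 in HDM ear, against 12.35, 12.69 and 13.19 in HDM back skin. Neither overlapped, and the differences were 2.64 ± 0.33 (adjusted p = 7.41e-06) and -2.57 ± 0.21 (adjusted p = 4.64e-08). The fibrillar chain Col1a1 differed by 0.53 ± 0.17 (adjusted p = 0.0237), which was not called in a fit on all 32 arrays (adjusted p = 0.134), and Col3a1 was not called at 0.07 ± 0.13 (adjusted p = 0.758). Of 25 matrix protease and injury matrix genes 8 were higher and 3 lower. The inhibitor Timp1 had 7.15, 10.79 and 12.72 in HDM ear, against 6.84, 7.56 and 8.45 in HDM back skin with overlap and a difference of 2.73 ± 0.81 (adjusted p = 0.017), Mmp2 differed by 1.34 ± 0.17 (adjusted p = 1.17e-05), and the collagenase Mmp13 was lower, with a difference of -2.63 ± 0.73 (adjusted p = 0.0118).

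Fibroblast and Wnt pathway genes were split evenly, with 8 of 24 higher and 8 lower in HDM ear. The Wnt inhibitors Wif1 and Sfrp2 had 10.22, 12.48 and 13.54 in HDM ear, against 5.57, 6.39 and 8.01 in HDM back skin and 11.95, 12.23 and 14.03 in HDM ear, against 7.51, 8.64 and 9.76 in HDM back skin. Neither overlapped, with differences of 5.50 ± 0.46 (adjusted p = 4.92e-08) and 3.88 ± 0.34 (adjusted p = 1.02e-07). Angptl7, a secreted angiopoietin-like protein, had 11.46, 13.87 and 15.24 in HDM ear, against 3.67, 5.11 and 6.11 in HDM back skin and a difference of 8.73 ± 0.51 (adjusted p = 2.8e-10), with 8.52 in sham. Dpp4, a surface peptidase of fascial fibroblast progenitors, was lower, with a difference of -2.21 ± 0.31 (adjusted p = 3.4e-05). Of 26 endothelial and lymphatic genes 8 were higher and 5 lower. The lymphatic receptor Lyve1, which some macrophages also carry, had 11.48, 11.98 and 12.47 in HDM ear, against 8.16, 9.33 and 10.03 in HDM back skin and was higher by 2.93 ± 0.25 (adjusted p = 6.39e-08); the sham difference was 0.80 and the interaction was 2.13 (adjusted p = 0.000803). The pan-endothelial gene Pecam1 was not called at 0.27 ± 0.18 (adjusted p = 0.317).

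Circadian clock genes were higher in HDM ear for 12 of 18 members and lower for 0, with a median difference of 1.02. Dbp, a clock output factor, had 9.11, 11.13 and 12.09 in HDM ear, against 7.13, 8.46 and 9.45 in HDM back skin, and Hlf, of the same PAR bZIP family, had 7.08, 9.34 and 11.32 in HDM ear, against 5.40, 5.95 and 6.78 in HDM back skin. Their differences were 2.34 ± 0.44 (adjusted p = 0.0006) and 3.29 ± 0.63 (adjusted p = 0.000707), and Hlf did not overlap. In sham 14 were higher and 1 lower with a median of 1.73 (15 and 1 without the 2 Sham back arrays). Arntl, the activator partner of Clock, was not called with HDM at 0.17 ± 0.19 (adjusted p = 0.592), whereas Clock was at 0.96 ± 0.22 (adjusted p = 0.00346). The labels give no sampling time, and its part in the result was not tested.

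Few cell cycle genes were called between the inflamed sites, where 26.3% of all rows were called. Of 31 measured, 3 were higher and 2 lower in HDM ear with a median difference of -0.07, whereas in sham 0 were higher and 22 lower with a median of -1.18, and the interaction was higher with HDM for 11; without the 2 Sham back arrays these were 19 lower in sham and 9. E2f1 and Mcm3 were among those higher in HDM ear, with differences of 1.11 ± 0.25 (adjusted p = 0.00263) and 0.74 ± 0.21 (adjusted p = 0.0136). Kif11 was lower, at -1.06 ± 0.20 (adjusted p = 0.000552). Mki67, a marker of dividing cells, had 13.52, 14.12 and 14.32 in HDM ear, against 14.06, 14.75 and 14.84 in HDM back skin. Its difference was -0.59 ± 0.15 (adjusted p = 0.00743), against -1.27 (adjusted p = 0.0018) in sham. In a fit on all 32 arrays the HDM difference of Mki67 was not called (adjusted p = 0.0537). Of 18 genes of EGF receptors, their ligands and the wound response, 6 were higher and 8 lower. Betacellulin (Btc) had 5.19, 5.99 and 6.55 in HDM ear, against 8.42, 9.29 and 10.10 in HDM back skin without overlap. Its difference was -3.35 ± 0.25 (adjusted p = 1.15e-08) and its interaction -2.56 (adjusted p = 7.33e-06). The urokinase receptor Plaur, on the list for the wound response, was higher by 2.46 ± 0.76 (adjusted p = 0.021).

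Sensory and itch genes were mostly low. Of 24 measured, 9 were below background at both sites, among them the ion channels Trpv1 and Trpa1, and 7 were higher and 1 was lower in HDM ear. Calcb, a neuropeptide of the CGRP pair, had 8.71, 9.14 and 10.06 in HDM ear, against 6.32, 7.28 and 8.06 in HDM back skin without overlap and a difference of 2.10 ± 0.30 (adjusted p = 4.38e-05); its sham difference was 0.40 (adjusted p = 0.468) and the interaction 1.70 (adjusted p = 0.0257), and without the 2 Sham back arrays sham was called (0.87, adjusted p = 0.0239) and the interaction was not (1.22, adjusted p = 0.0776). Tac4, a tachykinin, differed by 2.42 ± 0.31 (adjusted p = 1.16e-05). Among melanocyte genes 4 of 19 were lower and 0 higher, with the endothelin receptor Ednrb at -1.92 ± 0.20 (adjusted p = 8.39e-07) and the melanocyte regulator Mitf at -1.68 ± 0.24 (adjusted p = 4.01e-05). Pmel, a melanosome protein, was not called at -0.71 ± 0.33 (adjusted p = 0.123).

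The major urinary protein Mup19, a lipocalin carrier of odorants, was among the 15 largest falls. It had 3.93, 4.21 and 4.59 in HDM ear, against 14.87, 15.17 and 16.57 in HDM back skin and was at least 1587-fold lower in HDM ear, where all 8 arrays lay below background. It was below background on all Sham ear arrays as well and at least 2040-fold lower there. It belongs to a family of near-identical genes, so signal from its relatives could be counted in this row.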

How the data were processed

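Clariom D arrays of 32 NC/Nga mouse skin samples were read from the authors' deposited table of log2 values, made with RMA and the Transcriptome Analysis Console, as named per the submitters' processing notes. The sources used here give neither versions nor a genome build. Of 28846 rows, 6640 control rows were set aside and 22206 tested; 19572 had 1 gene symbol, 0 several and 2634 none, in the platform annotation. The values were used as deposited, which run from 1.71 to 19.93. Arrays give no read depth, and their number limits the precision.

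The limma package (3.58.1, R 4.3.3) was fitted with empirical Bayes moderation to the 16 HDM arrays, to the 16 sham arrays, and to all 32 for the interaction, with Benjamini-Hochberg adjustment over 22206 rows. The fits were tested on simulated data with the spread of HDM back skin in every group, so the wider spread of HDM ear was not simulated. Each gene was read from 1 row, the one with the highest mean. The text names genes out of the following: for each list the first 3 members and the 3 called members with the largest differences, and across all genes the 15 largest differences a direction without overlap and above background on all arrays of the higher group, 8 a direction with the interaction called and sham not, 5 a direction opposite to sham, and the 5 highest means of each HDM group. Members and the 44 lists (915 of 1010 genes measured, 3 through a synonym) were chosen with earlier results of these data known. Alternatives were other arrays in the fit, a replicate block, array weights, robust moderation, equal array medians, dim rows left out, a floor at background and each array left out; leaving out Sham back mice 1 and 2 was chosen after seeing the data. Where the labels do not show separate animals, p-values measure only the spread between these samples.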

Additional observations from a re-analysis of the deposited data

Results flagged for a closer look

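The interaction, the HDM site difference minus the Sham site difference in log2 units, was called at an adjusted p under 0.05 for 81 of 183 named genes, against 10.1% of all rows. It is given here for each of the 81. Ccl3, Ccl4, E2f1, Kif11 and Mcm3 are not counted among the 183. The 183 genes include some that were chosen for that interaction, so their share is no result.

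The largest positive values, higher in ear relative to back with HDM than with sham, were Alox8 9.32, Cyp2g1 6.43, Krt16 6.32, Ccl9 5.64, Ccl22 5.63, Dio2 4.74, Stc1 4.64, Ccl12 4.62, Reg3g 4.58, Serpinb6d 4.57, Defb3 4.56, Retnlg 4.43, Cxcl9 4.40, Ccl17 4.24 and S100a8 4.12. Next in size were Dgat2l6 4.12, Timp1 4.10, Il19 3.83, Ccl7 3.83, Slc26a4 3.77, Ccl2 3.72, Wfdc12 3.67, Gjb2 3.63, Fcer1g 3.53, Gadl1 3.48, Fa2h 3.37, S100a7a 3.35, Aadacl2fm2 3.29, Awat1 3.24 and Socs3 3.10. Smaller values were Cxcl10 3.05, Ccl24 2.94, Cd163 2.82, Cers4 2.64, Rptn 2.62, Elovl3 2.61, Tnfrsf9 2.52, Lyve1 2.13, Pf4 2.11, Serpinb2 2.04, H2-Ab1 2.04, Socs1 2.02, H2-Aa 1.88, Krt1 1.88 and Cd207 1.80. The smallest of the positive values were Ptges 1.80, Calcb 1.70, Tac4 1.67, Il1rn 1.63, Csf1r 1.63, Ednrb 1.60, Csf1 1.59, S100a4 1.58, Jak2 1.56, Dpp4 1.48, Scd1 1.38, Cd4 1.27 and Alox5 1.04. The largest negative values were Klk14 -4.88, Myh4 -4.75, Myh8 -3.57, Ttn -3.56, Pvalb -3.30, Neb -3.17, Atp2a1 -3.13, Myh1 -3.09, Erich3 -3.04, Ppp1r3a -3.01, Chad -2.92 and Btc -2.56. The other negative values were Dnaja4 -2.21, Cpe -2.09, Il18 -1.98, Acan -1.92, Dbp -1.76, Krt23 -1.75, Ptgis -1.34, Krt79 -1.32, Epcam -1.02, Comp -0.84 and Krt14 -0.71.

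For 13 of these genes at least 1 of the 4 groups lay below background on all 8 arrays, so the value is fitted and no measured size: Chad, S100a7a, Reg3g, Klk14, Il19, Ccl17, Ccl12, Cxcl10, Timp1, Comp, Retnlg, Slc26a4 and Erich3. Without Sham back mice 1 and 2 the interaction was no longer called for 10 of all these genes, with limma's adjusted p in brackets: Krt23 (0.0508), Rptn (0.0769), Il1rn (0.131), Ptges (0.111), Alox5 (0.0671), Retnlg (0.0599), Cd207 (0.0682), Cd4 (0.111), Calcb (0.0776) and Dbp (0.0776).

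A single array stood apart from the other 7 of its group, with a gap to the nearest value above Dixon's critical share of the range, in 13 of 366 groups tested; chance alone gives this in about 1 in 20. These were Krt24 in HDM back skin (mouse 7 lowest at 3.83, nearest 4.61), Krtap1-4 in HDM ear (mouse 3 highest at 5.81, nearest 4.04), Sprr4 in HDM back skin (mouse 5 lowest at 14.19, nearest 15.95), Il17a in HDM back skin (mouse 8 highest at 4.58, nearest 3.72) and Ifng in HDM ear (mouse 5 highest at 4.81, nearest 3.72). Others were Ptgis in HDM back skin (mouse 7 highest at 6.07, nearest 5.46), Adipoq in HDM back skin (mouse 5 highest at 12.60, nearest 11.68), Elane in HDM back skin (mouse 8 lowest at 2.76, nearest 3.11), Fcer1g in HDM back skin (mouse 4 lowest at 8.02, nearest 8.96) and Prg2 in HDM back skin (mouse 2 highest at 4.15, nearest 3.25). The rest were Slc26a4 in HDM back skin (mouse 5 highest at 4.98, nearest 3.53), Pvalb in HDM back skin (mouse 1 lowest at 8.16, nearest 9.97) and Krt10 in HDM ear (mouse 2 lowest at 19.50, nearest 19.80).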

How the results depend on the processing

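The HDM count of 5831 stayed within 1.5 times under the 7 other settings, from 5203 with values under background raised to it to 6218 with all 32 arrays, and lay between 5373 and 5801 with 1 array left out. The sham count of 6595 ranged from 5919 to 7402, and from 6023 to 6529 with 1 array left out; with array medians made equal 66.6% of calls were higher in ear, against 52.3% as deposited. The interaction count of 2251 ranged from 1964 to 2415, and from 1817 to 2618 with 1 array left out, but was 12103 with values under background raised to it, 9789 of them lower. That floor was 5.09 to 5.38 on Sham ear arrays and 4.43 to 5.09 on the others. Without Sham back mice 1 and 2, left out after seeing the data, the counts were 6536 for sham and 1885 for the interaction.

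The mouse number as a replicate block gave 5569, 6198 and 1964 calls for HDM, sham and the interaction. Same-numbered ear and back arrays correlated between -0.084 and 0.14 with HDM, where 2 of 8 matched their own number best, and between -0.113 and 0.04 with sham, where none did, so the numbers were not used to pair arrays.

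Of 183 genes named in the text, 173 kept their side of the threshold under every alternative to the HDM comparison that tested them, 10 did not, and none changed direction. Ccl3, Ccl4, E2f1, Kif11 and Mcm3 are not counted here. With all 32 arrays Col1a1 (adjusted p = 0.134) and Mki67 (0.0537) were not called and Col2a1 (0.042) was. With values raised to background Jchain (0.0561) and Slc26a4 (0.0606) were not called. With 1 array left out limma no longer called Retnlg in 4 of 16 fits (HDM ear mouse 5 or 7, HDM back mouse 6 or 7; adjusted p 0.0508 to 0.0509), nor Cd207 in 8 (HDM ear mouse 3, 4, 7 or 8, HDM back mouse 1, 4, 6 or 8; 0.0504 to 0.0639). Col2a1 was called without HDM ear mouse 4 or 7 (0.0326 and 0.043), and Adgre1 in 5 such fits (0.0181 to 0.0484) and under the block, array weights, robust moderation and the filter on dim rows (0.0367 to 0.0484). Robust moderation and values raised to background put S100a7a at 0.0763 and 0.0578, and 11 of 16 fits with 1 array left out at 0.0629 to 0.0915. Cxcl1 was called with all 32 arrays (0.0373), without dim rows (0.0383) and without HDM ear mouse 3, 4, 6 or 8 (0.0195 to 0.0465). The causes were not tested. Values near background or near 19.93, the highest in the table, limit the size of a measured difference.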

Other observations

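Beyond the groups described above, 3 enzymes that belong to no list were among the 15 genes with the largest differences toward HDM ear. Aadacl2fm2, of the arylacetamide deacetylase-like esterase family, had 11.04, 13.96 and 15.16 in HDM ear, against 5.47, 7.76 and 8.59 in HDM back skin without overlap and a difference of 6.10 ± 0.68 (adjusted p = 2.18e-06). The alcohol dehydrogenase Adh6a and the acidic amino acid decarboxylase Gadl1 differed by 5.72 ± 0.80 (adjusted p = 2.8e-05) and 5.40 ± 0.56 (adjusted p = 8.8e-07). All 3 were higher in Sham ear too, with differences of 2.81, 3.60 and 1.92.

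Erich3, a protein of cilia, had 4.09, 4.76 and 5.57 in HDM ear, against 7.14, 8.19 and 9.12 in HDM back skin without overlap and a difference of -3.38 ± 0.28 (adjusted p = 4.27e-08), and it was not called in sham (adjusted p = 0.319). Slc26a4, the anion exchanger pendrin, had 3.46, 5.98 and 10.80 in HDM ear, against 2.72, 3.21 and 4.98 in HDM back skin with overlap, and its difference was 3.26 ± 1.03 (adjusted p = 0.0242). It exceeded background on 4 of 8 HDM ear arrays and on 1 of 8 HDM back arrays. Among Schwann cell genes 4 of 15 were higher and 1 lower in HDM ear; Pmp22, a myelin protein also made by fibroblasts, differed by 1.89 ± 0.17 (adjusted p = 1.66e-07), and Egr2, a factor of myelination, by -1.60 ± 0.30 (adjusted p = 0.000561). Of 10 B and plasma cell genes 2 were lower, the syndecan Sdc1, which keratinocytes make as well, and the immunoglobulin joining chain Jchain, which was above background on none of the 8 HDM ear arrays and on 5 of the 8 HDM back arrays. Of the 2 measured erythroid genes Slc4a1, the red cell anion exchanger, was lower with a difference of -2.10 ± 0.25 (adjusted p = 5.07e-06).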
